A study of Mus musculus with 32 samples.

Results

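The 10 genes described here encode zinc-dependent histone deacetylases, Hdac1, Hdac2, Hdac3, Hdac4, Hdac5, Hdac6, Hdac7, Hdac8, Hdac10 and Hdac11, and they were taken by symbol from the 55385 genes listed in each of 16 total RNA libraries of mouse early embryos. Hdac9 was not among the genes taken, so sums and shares of the family are those of these 10 genes. The embryos came from B6D2F1/J females and males of 6 to 8 weeks by in vitro fertilization, and the embryos of a library were lysed together. In what is called here the A-485 experiment, embryos were cultured with 10 µM A-485 or its solvent DMSO. They were collected as zygotes or at the early or late 2-cell stage. A-485 blocks the acetyltransferase activity of CBP and p300. The labels do not say whether these stages were handled and sequenced on the same occasion. In comparisons between stages, stage and occasion cannot be told apart. The culture with A-485 ran from 4 to 20 hours after insemination, and how much of it the embryos collected as zygotes had received is not given in the labels. The late 2-cell embryos of that experiment were therefore collected after the drug had been washed out. In the other experiment, late 2-cell embryos had received 50 nM trichostatin A (TSA) or DMSO from 8 to 28 hours after insemination. Each of the 8 groups had 2 libraries. Whether the 2 were separate collections is not given in the labels, so every p-value measures only the spread between such libraries.

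Histone deacetylases remove acetyl groups from lysines of histones and other proteins, which counters acetyltransferases such as CBP and p300. Class I enzymes (Hdac1, Hdac2, Hdac3 and Hdac8) are mostly nuclear, and Hdac1 and Hdac2 are paired catalytic subunits of the Sin3, NuRD, CoREST and MiDAC complexes, while Hdac3 works in the NCoR/SMRT complex. Class IIa enzymes (here Hdac4, Hdac5 and Hdac7) shuttle between cytoplasm and nucleus and have weak catalytic activity of their own. Class IIb holds the tubulin deacetylase Hdac6 and the polyamine deacetylase Hdac10, and Hdac11 is the lone class IV enzyme. TSA binds the zinc ion in the active site of these enzymes, so the treatment acts on the proteins, whereas the values here are RNA levels.

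Total expected counts per library lay between 13206163 and 32585987, with a median of 22730518. All 12 oocyte and embryo marker genes were at a mean of at least 1 FPKM in each group. Cumulus cell markers summed to between 2.63 and 14.35 FPKM over 11 genes, with 1 or 2 of them at a mean of 1 FPKM, and sperm markers to between 1.25 and 18.92 FPKM over 8 genes, against 710.4 FPKM or more for the oocyte and embryo markers. FPKM is fragments per kilobase of effective transcript length, relative to all fragments mapped in that library, so it can be compared between genes. In these pooled embryos, more RNA of a gene per cell and more cells that hold it cannot be told apart.

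Promoter sequences are shown for the 5 genes of the family that had an ATAC-seq promoter peak at their RefSeq start in at least 1 of 4 peak lists and a stretch free of annotated exons, since these are the letters under the open chromatin described at the end. They are RefSeq promoters of GRCm38.p6 on the strand of the gene, 5′ to 3′, and matched 7 of the 10 genes. Capitals mark a CCAAT box (CCAAT or, on the other strand, ATTGG) and a GC box (GGGCGG or CCGCCC). Each stretch covers the 150 bases before the start, except that of Hdac11, which covers 100 bases ending before an earlier GENCODE start.
Hdac2, chr10:36974394-36974543, plus strand: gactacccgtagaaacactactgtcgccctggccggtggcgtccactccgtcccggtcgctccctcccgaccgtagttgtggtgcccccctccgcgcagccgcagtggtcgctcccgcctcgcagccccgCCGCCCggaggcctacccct
Hdac4, chr1:92180342-92180491, minus strand: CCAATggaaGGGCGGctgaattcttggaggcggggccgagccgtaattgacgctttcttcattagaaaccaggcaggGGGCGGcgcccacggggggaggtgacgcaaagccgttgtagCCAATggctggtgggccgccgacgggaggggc
Hdac5, chr11:102230173-102230322, minus strand: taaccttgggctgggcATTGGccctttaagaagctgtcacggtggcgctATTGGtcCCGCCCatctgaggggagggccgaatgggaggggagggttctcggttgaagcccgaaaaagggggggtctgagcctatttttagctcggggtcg
Hdac6, chrX:7947890-7948039, minus strand: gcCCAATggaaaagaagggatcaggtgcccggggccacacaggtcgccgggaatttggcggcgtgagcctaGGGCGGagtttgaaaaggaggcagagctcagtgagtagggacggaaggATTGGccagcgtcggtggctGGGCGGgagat
Hdac11, chr6:91156565-91156664, plus strand: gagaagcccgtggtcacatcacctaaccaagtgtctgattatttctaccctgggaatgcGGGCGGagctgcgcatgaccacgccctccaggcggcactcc

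In DMSO-treated embryos, the family's RNA passed from Hdac2 in the zygote to Hdac1 in the late 2-cell embryo. Hdac2 was at 36.19 and 39.63 FPKM in the 2 zygote libraries, at 55.48 and 49.16 FPKM in early 2-cell, and at 45.86 and 40.27 FPKM (A-485 experiment) or 38.91 and 35.29 FPKM (TSA experiment) in late 2-cell embryos. Hdac1 was at 3.60 and 5.67 FPKM in zygotes, at 33.28 and 28.08 FPKM in early 2-cell, and at 89.06 and 98.84 FPKM or 88.80 and 109.03 FPKM in late 2-cell embryos. Hdac1 thus stood below Hdac2 in both zygote libraries and above it in all 4 late 2-cell control libraries. The ratio of Hdac1 to Hdac2 FPKM was 0.0995 and 0.143 in zygotes, 0.600 and 0.571 in early 2-cell, and between 1.94 and 3.09 in the late 2-cell controls. Hdac1 made up 6.2% and 9.1% of the summed FPKM of the 10 genes in zygotes, 31.1% to 32% in early 2-cell, and 54.3% to 65.0% in late 2-cell controls. That sum was 57.70 and 62.23 FPKM in zygotes and 150.0 to 182.0 FPKM in late 2-cell embryos.

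**Figure D1:**
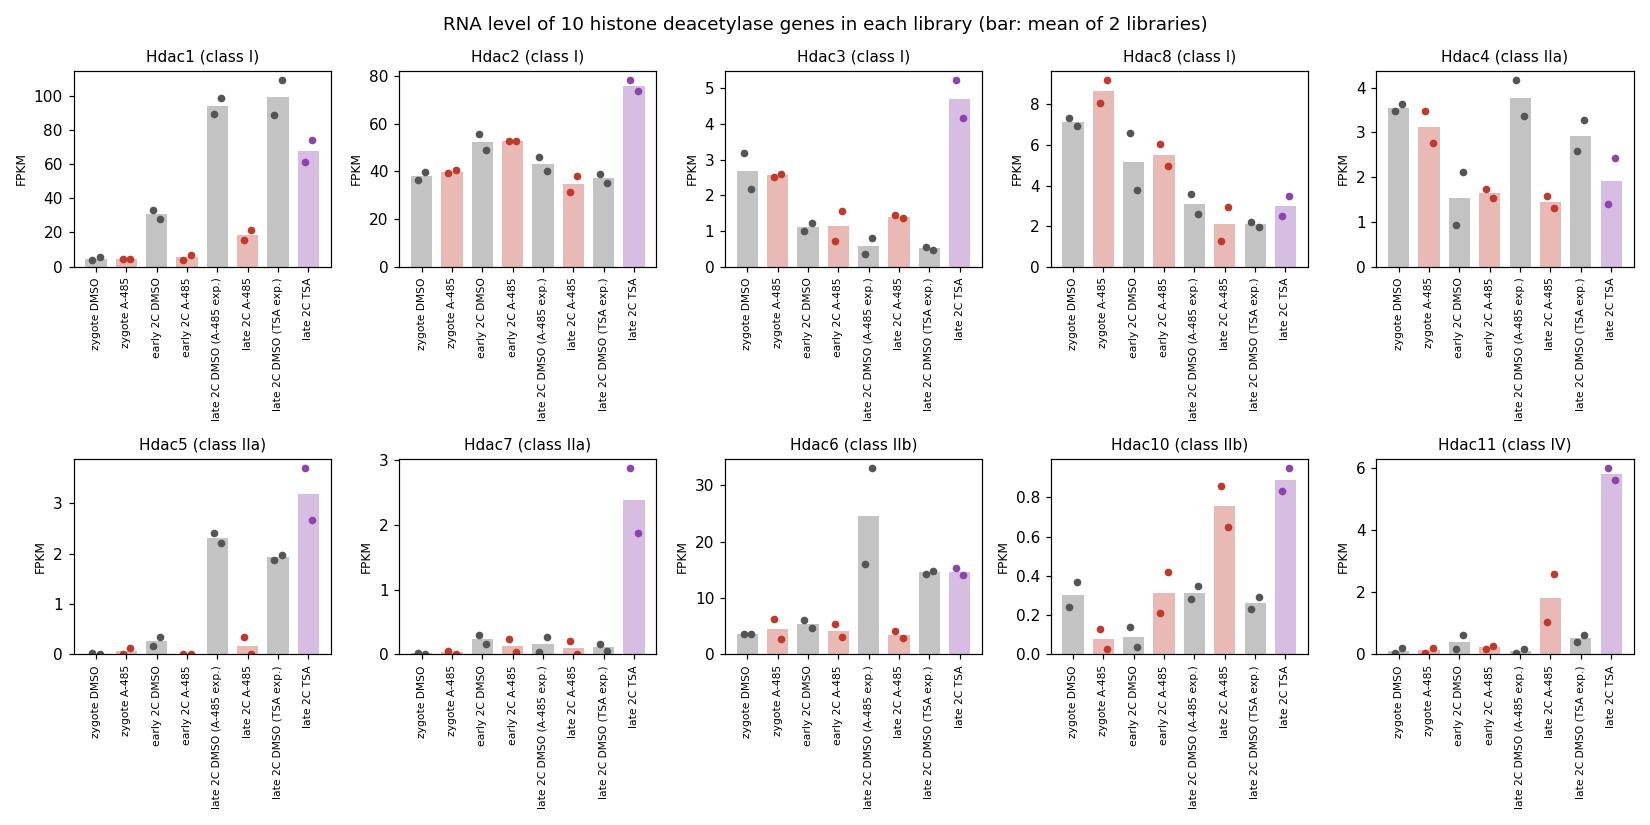
FPKM of each of the 10 genes in 8 groups, with a bar for the mean of 2 libraries, a point for each library and an axis of its own for each gene (grey DMSO, red A-485, purple TSA). Hdac1 climbs from zygote to late 2-cell DMSO embryos and is low after A-485, and Hdac3, Hdac7 and Hdac11 are highest after TSA.

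From the zygote to the early 2-cell stage without inhibitor, Hdac1 rose by 2.74 ± 0.21 on the log2 scale (SE, 2 against 2 libraries; edgeR quasi-likelihood test with Benjamini-Hochberg adjustment over all genes, adjusted p = 2.03e-07), while Hdac3, the catalytic subunit of NCoR/SMRT, and Hdac4 fell. Hdac3 went from 3.19 and 2.19 FPKM to 1.01 and 1.23 FPKM, a log2 change of -1.32 ± 0.39 (edgeR adjusted p = 0.0143). Hdac4 went from 3.48 and 3.63 FPKM to 0.94 and 2.11 FPKM, a log2 change of -1.07 ± 0.33 (edgeR adjusted p = 0.016). A gene was called when its adjusted p was under 0.05, its fold change at least 2 and its mean FPKM at least 1 in either group, and 1 member rose and 2 fell, where 11.2% of the 20106 genes tested rose and 14.9% fell. Hdac2 was higher by 0.56 ± 0.11, with an adjusted p of 0.000788 in edgeR but a fold change of 1.48, under 2, and it was lower when libraries were scaled to the 13 mitochondrially encoded coding genes (log2 change -0.77). That scaling moved the median of expressed genes from -0.12 to -1.45 and gave 1 member up and 4 down, where 6.32% of all genes tested rose and 40.8% fell under it. The Hdac3 call was lost without zygote DMSO replicate 1 (log2 change -0.95, edgeR adjusted p = 0.214) and in the fit of all 16 libraries (-1.30, adjusted p = 0.074), and the Hdac4 call without zygote DMSO replicate 2 (-0.90, adjusted p = 0.0991) or early 2-cell DMSO replicate 1 (-0.62, adjusted p = 0.0578).

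From the early to the late 2-cell stage, 4 members rose and 1 fell, where 19.3% of 21141 genes tested rose and 10.3% fell. Hdac1 rose again, by 1.82 ± 0.13 (edgeR adjusted p = 5.24e-07). Hdac6, which deacetylates tubulin, went from 6.05 and 4.69 FPKM to 14.26 and 14.83 FPKM, a rise of 1.86 ± 0.19 (edgeR adjusted p = 8.22e-06). Hdac5 was at 0.17 and 0.35 FPKM and then at 1.88 and 1.97 FPKM, a rise of 2.96 ± 0.51 (edgeR adjusted p = 0.000628). Hdac4 returned to 2.58 and 3.27 FPKM, a rise of 1.07 ± 0.34 (edgeR adjusted p = 0.0229). Hdac8, which is known to deacetylate cohesin, went from 6.57 and 3.78 FPKM to 2.20 and 1.97 FPKM and fell by 1.12 ± 0.31 on the log2 scale (edgeR adjusted p = 0.0122). Hdac2 was lower by 0.50 on the log2 scale (edgeR adjusted p = 0.00313), under 2-fold. The Hdac4 and Hdac8 calls rested on single libraries: neither was made without early 2-cell DMSO replicate 1 (log2 changes 0.62 and -0.79) or without late 2-cell DMSO replicate 2 of the TSA experiment (1.12 and -1.06, adjusted p = 0.0658 and 0.0696), and the Hdac4 call was also lost without replicate 1 of the latter (1.02). With the late 2-cell controls of the A-485 experiment in place of those of the TSA experiment, Hdac8 was lower by 0.62 on the log2 scale with an adjusted p of 0.198 in edgeR. Hdac4 was higher by 1.55 with those controls (edgeR adjusted p = 0.00421) and was called.

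The remaining 3 members were near the bottom of the range in control embryos. Hdac7 was between 0.01 and 0.30 FPKM, Hdac10 between 0.04 and 0.37 FPKM and Hdac11 between 0.05 and 0.64 FPKM in the DMSO libraries. Their mean was under 1 FPKM in each control group, so they could not be called between stages or between the late 2-cell controls. From zygote to early 2-cell, the log2 changes were -1.66 ± 1.20 for Hdac10 and 1.75 ± 0.99 for Hdac11. Hdac7, with 2 counts and 1 count in zygotes, was at least 3.87-fold higher against a floor of 3 counts per library. From early to late 2-cell, Hdac7, Hdac10 and Hdac11 changed by -1.29 ± 1.32, 1.85 ± 1.13 and -1.01 ± 0.87. The 2 sets of late 2-cell controls, from 2 experiments, differed in no member by these criteria, where 1.19% of 20647 genes were called higher and 0.136% lower in the TSA experiment, and 1 member, Hdac4, had an unadjusted edgeR p under 0.05 (log2 difference -0.50 ± 0.23, adjusted p = 0.353).

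**Figure D2:**
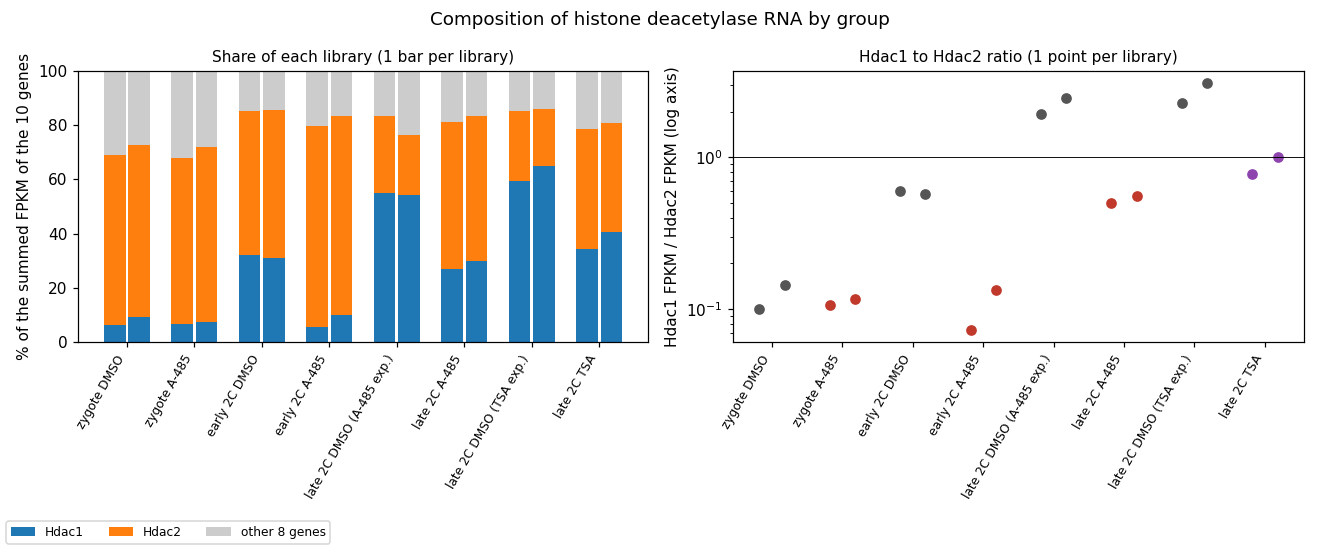
Left, percent of the summed FPKM of the 10 genes held by Hdac1, Hdac2 and the other 8, with 1 bar per library. Right, the ratio of Hdac1 to Hdac2 FPKM on a log axis, with 1 point per library and the line at 1: all 4 late 2-cell DMSO libraries lie above 1, and both late 2-cell A-485 libraries lie at 0.501 and 0.559. RSEM gave Hdac1 shorter effective lengths in those A-485 libraries than in their controls, which raises their ratio in FPKM.

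To ask whether the course of these genes needs CBP and p300 activity, A-485-treated embryos were compared with DMSO-treated embryos of the same stage. In zygotes, no member differed by the criteria above, where 0.00548% of 18258 genes tested were called up and 0.0657% down. Of the 8 members with enough counts to be tested, 0 had an unadjusted edgeR p under 0.05, and DESeq2 called 0 as well. Hdac1 was at 4.18 and 4.70 FPKM and Hdac2 at 39.36 and 40.38 FPKM after A-485, which for Hdac1 lay inside the range of the controls, and the 95% interval of the log2 change reached from -0.62 to 0.40 for Hdac1 and from -0.15 to 0.24 for Hdac2. Hdac8 was at 8.09 and 9.20 FPKM against 7.33 and 6.95 FPKM, apart in FPKM but with an adjusted p of 0.964 in edgeR. Hdac3 (2.52 and 2.61 against 3.19 and 2.19 FPKM), Hdac4 (3.49 and 2.76 against 3.48 and 3.63 FPKM) and Hdac6 (6.23 and 2.76 against 3.57 and 3.58 FPKM) overlapped. The other members were low, with Hdac10 at 0.13 and 0.03 against 0.24 and 0.37 FPKM, Hdac11 at 0.05 and 0.21 against 0.05 and 0.20 FPKM, and Hdac5 and Hdac7 at 4 counts or fewer in each library.

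In early 2-cell embryos, Hdac1 did not reach the control level after A-485. It was at 3.86 and 7.07 FPKM, against 33.28 and 28.08 FPKM in DMSO, and the log2 change was -3.07 ± 0.25, an 8.38-fold lower level (edgeR adjusted p = 3.22e-06). RSEM gave Hdac1 effective lengths of 1035 and 1072 bases after A-485 against 1596 and 1600 in DMSO, so its FPKM fell less than its counts. The treated early 2-cell libraries overlapped in Hdac1 FPKM with those of DMSO zygotes (3.60 and 5.67 FPKM). Hdac2 was at 52.86 and 52.71 FPKM, between the 2 control libraries, with a 95% interval of the log2 change from -0.19 to 0.25. Hdac1 was the 1 member called, and it was lower, where 7.90% of 20872 genes tested fell and 0.402% rose. Hdac5 had 0 counts in both A-485 libraries and 7 and 15 counts in the controls, which is at least 3.91-fold lower against a floor of 3 counts per library, with an adjusted p of 0.116 in edgeR. In the edgeR fit of all 16 libraries its adjusted p was 0.0142. Its mean FPKM was under 1 in both groups, so it could not be called in either fit. Hdac6 was at 5.31 and 3.14 FPKM against 6.05 and 4.69 FPKM, and the 2 ranges overlapped. Hdac3 (0.71 and 1.56 FPKM), Hdac4 (1.74 and 1.53), Hdac7 (0.23 and 0.04), Hdac8 (6.07 and 4.98) and Hdac11 (0.19 and 0.27) also overlapped their controls, and Hdac10, at 0.21 and 0.42 against 0.14 and 0.04 FPKM, had an adjusted p of 0.597 in edgeR.

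In late 2-cell embryos, which had been free of A-485 since 20 hours after insemination, Hdac1, Hdac4 and Hdac6 were lower than in controls. Hdac1 was at 15.71 and 21.15 FPKM against 89.06 and 98.84 FPKM, a log2 change of -3.17 ± 0.15 (edgeR adjusted p = 2.09e-08). Its effective lengths were 1309 and 1007 bases after A-485 against 1759 and 1746 in controls, so here too FPKM fell less than counts. Hdac6 was at 4.10 and 2.85 FPKM against 15.96 and 33.10 FPKM, a log2 change of -3.14 ± 0.25 (edgeR adjusted p = 1.08e-06). For the 2 Hdac6 controls, RSEM gave effective lengths of 3189 and 1789 bases and expected counts of 1174 and 1138, so that they differed in FPKM more than in counts. Hdac4 was at 1.59 and 1.3 FPKM against 4.17 and 3.37 FPKM, a log2 change of -2.34 ± 0.35 (edgeR adjusted p = 0.000247). For none of the 3 genes did the groups overlap. In FPKM, Hdac1 and Hdac6 of the treated embryos stood below their early 2-cell DMSO range, and Hdac4 within it. In CPM (counts scaled to the library total), Hdac4 was at 3.105 and 3.753 against 3.256 and 7.169, so that treated replicate 1 lay below that range. The 3 members that fell compare with 16.8% of the 22822 genes tested that fell, and 0 members rose, where 10.5% did.

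Hdac2 was at 31.34 and 37.86 FPKM after A-485 against 45.86 and 40.27 FPKM in late 2-cell embryos. The difference of -0.57 ± 0.16 on the log2 scale had an adjusted p of 0.0137 in edgeR and a fold change of 1.48, so it did not pass the fold criterion. Hdac5 was at 0.34 and 0.01 FPKM against 2.40 and 2.20 FPKM, with an adjusted p of 0.0709 in edgeR, and it was called without late 2-cell A-485 replicate 1, in which it had 23 counts against 1 in the other library (log2 change -5.93). It was also called with no filter on low counts (edgeR adjusted p = 0.00623), in the fit of all 16 libraries (0.0354) and with the replicate number as a block (0.005). Hdac11 was at 1.05 and 2.60 FPKM against 0.05 and 0.19 FPKM. These values come from 11 and 24 counts against 3 and 4 counts, and the log2 change of 2.63 ± 1.27 did not pass (edgeR adjusted p = 0.124), though it did in the fit of all 16 libraries (2.69, adjusted p = 0.0133). Hdac3 was at 1.45 and 1.36 FPKM against 0.36 and 0.80 FPKM, apart in FPKM but with an adjusted p of 0.32 in edgeR. Hdac8, at 1.26 and 2.92 FPKM against 3.57 and 2.59 FPKM, overlapped, as did Hdac7, at 0.21 and 0 FPKM against 0.04 and 0.27 FPKM. Hdac10 was at 0.86 and 0.65 against 0.28 and 0.35 FPKM, with an adjusted p of 0.422 in edgeR.

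The mitochondrially encoded coding genes took 5.43% and 5.35% of the counts in the treated libraries and 2.45% and 2.35% in the controls. Scaled to those genes, the median log2 change of expressed genes went from 0.02 to -0.96, and Hdac2, Hdac5 and Hdac8 were called lower beside Hdac1, Hdac4 and Hdac6, which makes 6 members down and 0 up, where 30.1% of all genes tested fell and 5.16% rose under that scaling. Relative to all genes, Hdac1, Hdac4 and Hdac6 were lower under each scaling. The 20 most abundant genes took 32.1% and 32.6% of the counts after A-485 against 20.1% and 19.0%, and the 12 oocyte and embryo markers summed to 1574 and 1593 FPKM against 874.1 and 934.1 FPKM. The part of these shifts in the values above was not tested.

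A difference between the effects of A-485 on Hdac1 at the 2-cell stages was not detected: the difference of the log2 changes, late against early, was -0.01 with a 95% interval from -0.60 to 0.58. The effect on Hdac6 and Hdac4 differed between the stages, by -2.57 ± 0.36 (edgeR interaction test over 8 libraries, adjusted p = 5.47e-06) and by -2.52 ± 0.55 (adjusted p = 0.00126). These are 2 of 10 members with a more negative effect at the late stage and 0 with a more positive one, where 9.90% and 10.1% of 25141 genes passed in those directions. For Hdac2 the difference of -0.51 ± 0.19 had an adjusted p of 0.0594 in edgeR, and it passed in DESeq2 (adjusted p = 0.0174). Scaled to the mitochondrially encoded genes, the Hdac1 difference was -1.10 and passed the test.

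**Figure D3:**
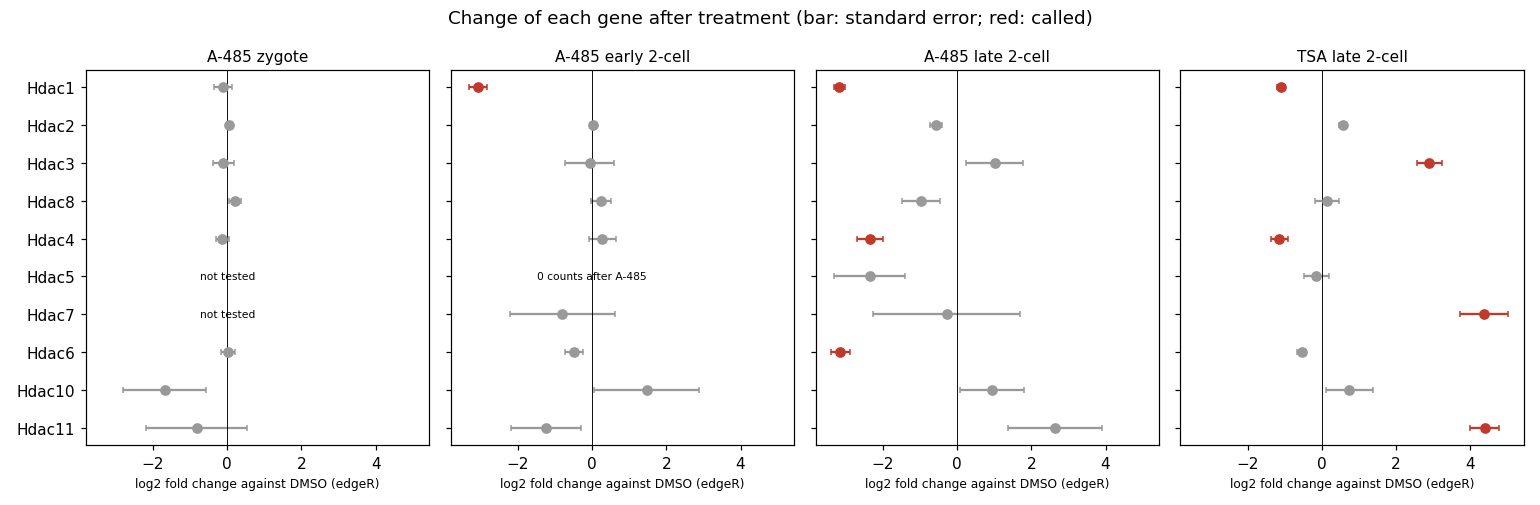
Log2 fold change of each gene against DMSO embryos of the same stage in edgeR, with the standard error as the bar, for 4 comparisons. Red points were called: Hdac1 is lower after A-485 at both 2-cell stages and after TSA, while Hdac3, Hdac7 and Hdac11 are higher after TSA by 2.89, 4.37 and 4.38.

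TSA blocks the catalytic activity of deacetylases, and the RNA of the enzymes themselves was compared in embryos treated with it. Hdac3, Hdac7 and Hdac11 rose and Hdac1 and Hdac4 fell, so that 3 members rose, where 13.8% of 23429 genes tested did, and 2 fell, where 13.9% did. Hdac11 was at 6.02 and 5.63 FPKM after TSA against 0.41 and 0.64 FPKM in DMSO, a rise of 4.38 ± 0.39 on the log2 scale (edgeR adjusted p = 5.29e-06). Hdac7 was at 2.88 and 1.88 FPKM against 0.16 and 0.06 FPKM, a rise of 4.37 ± 0.64 (edgeR adjusted p = 0.000232), from 103 and 58 counts against 6 and 2. Hdac3 was at 5.23 and 4.16 FPKM against 0.55 and 0.47 FPKM, a rise of 2.89 ± 0.34 (edgeR adjusted p = 4.6e-05). The TSA libraries of these 3 genes were above every other RNA library. The mitochondrially encoded coding genes took 3.66% and 3.72% of the counts after TSA against 2.71% and 2.39%, and the 20 most abundant genes 25.73% and 26.97% against 20.78% and 20.39%, and the part of these shifts in the TSA values was not tested.

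Hdac1 was at 60.97 and 74.03 FPKM after TSA against 88.80 and 109.03 FPKM, a log2 change of -1.10 ± 0.11 (edgeR adjusted p = 1.33e-05). Hdac4 was at 1.39 and 2.42 FPKM against 2.58 and 3.27 FPKM, a log2 change of -1.15 ± 0.23 (edgeR adjusted p = 0.00226). Both lay close to the 2-fold limit. With total-count scaling, which moved the median of expressed genes from -0.03 to 0.32, their log2 changes were -0.75 and -0.80, still past the adjusted p but under 2-fold, so that 3 members were called up and 0 down. The Hdac1 change was also under 2-fold without late 2-cell DMSO replicate 2, at -0.95 (edgeR adjusted p = 0.000104), and in the fit of all 16 libraries, at -0.97 (adjusted p = 3.6e-05).

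Hdac2 went the other way, at 78.31 and 73.75 FPKM after TSA against 38.91 and 35.29 FPKM. In edgeR the log2 change of 0.56 ± 0.09 (adjusted p = 0.000665) was under 2-fold. With total counts in place of TMM scaling it was 0.91. The ratio of Hdac1 to Hdac2 FPKM was 0.779 and 1.00 in TSA embryos against 2.28 and 3.09 in their controls, and the groups did not overlap. Hdac6 was at 15.28 and 14.04 FPKM against 14.26 and 14.83 FPKM, with a log2 change of -0.54 ± 0.12 in edgeR (adjusted p = 0.00325, fold change 1.45). Hdac5 (3.70 and 2.67 against 1.88 and 1.97 FPKM), Hdac8 (2.49 and 3.47 against 2.20 and 1.97 FPKM) and Hdac10 (0.83 and 0.95 against 0.23 and 0.29 FPKM) had adjusted p-values of 0.76, 0.769 and 0.399 in edgeR. For Hdac5, the counts of 67 and 104 against 101 and 97 did not follow the FPKM, and 1 TSA library was given an effective length of 968 bases.

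Set against each other at the late 2-cell stage, each with its own controls, the changes after TSA and after A-485 differed for Hdac1 by 2.17 ± 0.18 (edgeR interaction test over 8 libraries, adjusted p = 9.23e-08), for Hdac6 by 2.71 ± 0.26 (adjusted p = 6.84e-07) and for Hdac2 by 1.23 ± 0.18 (adjusted p = 8.81e-05), all more positive after TSA. Hdac4 (1.29 ± 0.42, adjusted p = 0.0421) and Hdac7 (4.76 ± 1.59, adjusted p = 0.048) also passed. These are 5 of 10 members in that direction and 0 in the other, where 12.7% and 4.59% of 26554 genes passed. Hdac4 did not pass in DESeq2 (adjusted p = 0.0654), nor did Hdac7 in a fit of all 16 libraries (adjusted p = 0.0644), and leaving out either TSA library or either of its DMSO libraries left 3 members, Hdac1, Hdac2 and Hdac6. For Hdac11, which was higher than its controls after both inhibitors in FPKM, the difference of 1.83 ± 0.94 did not pass (adjusted p = 0.219 in edgeR).

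The order of the groups by mean FPKM differed from gene to gene. Hdac1 was highest in the 2 late 2-cell DMSO groups, which overlapped each other. Hdac2, Hdac3, Hdac7 and Hdac11 were highest in TSA embryos and did not overlap the next group. Hdac5 was so in FPKM, but in CPM (counts scaled to the library total) its TSA libraries (3.58 and 5.33) overlapped the late 2-cell controls of both experiments (3.21 and 4.84, and 3.81 and 3.93). Hdac10 was also highest there, at 0.83 and 0.95 FPKM, but overlapped the late 2-cell A-485 libraries at 0.86 and 0.65 FPKM. Hdac8 was highest in zygotes, at 8.09 and 9.20 FPKM after A-485 and 7.33 and 6.95 FPKM in DMSO. Hdac4 was highest in the late 2-cell controls of the A-485 experiment and overlapped both zygote groups, and Hdac6 was highest in the same controls at 15.96 and 33.10 FPKM, above the TSA group at 15.28 and 14.04 FPKM.

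Hdac1, at 4:129516104-129542713 on the minus strand of GRCm38, shares sequence with a processed pseudogene, Gm10093, on chromosome 17 (17:78491582-78493025, plus strand), which matches Hdac1 over 1444 bases at 99.4% identity. RSEM divided reads between them. Gm10093 held 494.4 and 408.4 expected counts in late 2-cell DMSO embryos of the A-485 experiment and 57.5 and 34.1 counts after A-485, against 3612.5 and 3314.7 and then 271.4 and 317.8 counts for Hdac1. Its log2 changes had the sign of those of Hdac1 in both 2-cell A-485 comparisons and after TSA (-5.44, -2.89 and -1.09). With the pseudogene's counts added to Hdac1, the number of members called was the same in all 9 comparisons. Gm4864 (0 to 67.61 counts, 94.6% identity) and AC125456.1 (0 to 102.5 counts, 96.3% identity) are further processed pseudogenes of Hdac1. Among genes that overlap a member on the opposite strand, Slc48a1 at Hdac7 had 122 and 140 counts after TSA against 111 and 79 counts in DMSO, and the antisense gene Gm14573 at Hdac11 had 0 counts in all 4 of these libraries. Gm14858 at Hdac8 had 12 counts or fewer throughout. The strand setting of the counting is not given in the sources used here.

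Of 5 lists of partner subunits (Sin3, NuRD, CoREST, NCoR/SMRT and MiDAC, with 44 genes in all besides the deacetylases), no gene was called in zygotes and 5 fell in early 2-cell embryos after A-485. In late 2-cell embryos after A-485, 18 fell and 2 rose, and after TSA 11 fell and 1 rose. Of all genes tested, 0.0657% fell and 0.00548% rose in zygotes and 7.90% fell and 0.402% rose in early 2-cell embryos after A-485. In late 2-cell embryos 16.8% fell and 10.5% rose after A-485, and 13.9% fell and 13.8% rose after TSA. The median log2 change of the 44 genes was -0.61 after A-485 and -0.49 after TSA, against 0.02 and -0.03 for expressed genes. These lists were chosen with earlier results of the same data known.

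Mta2, a scaffold subunit of NuRD that binds Hdac1 and Hdac2, showed the largest fall of its list in each 2-cell comparison. It was at 2.48 and 4.51 FPKM after A-485 against 30.90 and 24.12 FPKM in early 2-cell embryos, at 23.44 and 15.56 against 212.95 and 215.37 FPKM in late 2-cell embryos, and at 18.06 and 16.71 FPKM after TSA against 176.81 and 189.23 FPKM. The log2 changes were -3.41 ± 0.23, -4.33 ± 0.19 and -4.02 ± 0.08 (edgeR adjusted p = 5.85e-07, 1.16e-08 and 1.11e-09). No treated library reached the range of its controls.

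In the Sin3 list, Ing1, a reader of methylated histone H3, fell by 1.62 ± 0.14 on the log2 scale in early 2-cell embryos after A-485 (10.86 and 19.74 against 53.13 and 48.33 FPKM). Brms1 showed the largest fall in late 2-cell embryos, to 1.13 and 7.58 FPKM from 26.99 and 38.63 FPKM after A-485, and to 19.22 and 20.12 from 40.59 and 36.40 FPKM after TSA. Ing2, a relative of Ing1, was the 1 partner gene called higher after TSA, at 39.78 and 34.92 against 13.06 and 16.65 FPKM (log2 change 1.39 ± 0.12, edgeR adjusted p = 5.07e-06). In the CoREST list, the corepressor Rcor2 fell in both 2-cell A-485 comparisons, by 1.04 ± 0.18 and by 3.07 ± 0.22, and the histone demethylase Kdm1a showed the largest fall after TSA, at 14.37 and 11.79 against 30.16 and 28.05 FPKM.

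The NCoR/SMRT list, the partners of Hdac3, held 0 called genes after TSA and in early 2-cell embryos after A-485. In late 2-cell embryos after A-485, Tbl1xr1, a WD-repeat subunit, rose by 1.03 ± 0.12 (82.01 and 89.12 against 35.30 and 35.75 FPKM), and Gps2 showed the larger of 2 falls, at 14.32 and 9.71 against 30.65 and 23.61 FPKM. Mbd2, the methyl-DNA binder of NuRD, rose by 1.18 ± 0.26 in the same comparison, at 18.75 and 19.40 against 8.04 and 8.34 FPKM. With scaling to the mitochondrially encoded genes neither was called, and 0 partner genes rose in this comparison. In the MiDAC list, Elmsan1 (1.27 and 0.42 against 0.90 and 2.75 FPKM) was called in early 2-cell embryos on counts although its FPKM overlapped, Trerf1 (0.23 and 0.34 against 1.31 and 1.41 FPKM) in late 2-cell embryos after A-485, and Dnttip1 (2.11 and 1.99 against 3.26 and 3.61 FPKM) after TSA.

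Among the 5 members that reached a mean of 5 FPKM in any group, Hdac11 had the widest range of group means, 4.75 on the scale of log2(FPKM + 0.1), ahead of Hdac1 at 4.45. The lowest Hdac11 group, the late 2-cell controls of the A-485 experiment, held 3 and 4 counts. RSEM gave Hdac11 effective lengths of 796 and 620 bases in late 2-cell A-485 libraries and 2457 and 2459 in early 2-cell DMSO libraries. These 2 groups were apart in FPKM but overlapped in CPM, at 0.833 and 1.608 against 0.419 and 1.552. Of 12165 other genes with at least 5 FPKM in their highest group, the 5 whose 8 group means correlated best with those of Hdac11 were Meig1 (Pearson r = 0.9933), Sycp3 (0.9814), Oxct2a (0.9796), Taf7l (0.979) and Wnt16 (0.9771). Sycp3 encodes a component of the synaptonemal complex and Taf7l a testis-expressed relative of a TFIID subunit. Meig1 was at a mean of 13.77 FPKM after TSA and 3.07 FPKM in late 2-cell A-485 embryos against 0.425 FPKM or less in each other group. Sycp3 was at 144.1 and 77.12 FPKM in those groups against 15.5 to 27.4 FPKM in the others. The 8 points share libraries and their scaling with Hdac11, so the r describes likeness only.

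ATAC-seq measures open chromatin. Each of the 4 peak lists, for DMSO and A-485 at the late 1-cell stage and at the early 2-cell stage, covers both replicates together, so that no replicate error can be given. A member was counted when a peak lay within 1 kb of any of its annotated starts. There were 7 such members in late 1-cell DMSO embryos (26.2% of 21951 protein-coding genes), 6 after A-485 (24.7%), 5 in early 2-cell DMSO embryos (31.7%) and 8 in early 2-cell A-485 embryos (40.9%). Hdac1, Hdac2, Hdac4 and Hdac6 had a promoter peak in all 4 lists. At Hdac1, whose RNA was 8.38-fold lower in early 2-cell embryos after A-485, the strongest promoter peak had a fold enrichment of 6.56 in DMSO and 8.80 after A-485. At Hdac2, whose RNA stood between its controls, the values were 7.41 and 7.94, at Hdac4 10.48 and 9.03, and at Hdac6 8.85 and 9.38. Fold enrichment was not scaled between the lists, which held 27693 peaks in early 2-cell DMSO embryos and 13712 after A-485. A change in openness can therefore not be read from these values.

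Hdac3, Hdac10 and Hdac11 had a promoter peak in early 2-cell A-485 embryos, at 6.17, 5.49 and 9.28-fold enrichment, and none in early 2-cell DMSO embryos, where the nearest peaks lay 8192, 3724 and 6087 bp from a start. Hdac3 and Hdac10 also had one in both late 1-cell lists and Hdac11 in that of DMSO. The RNA of Hdac3 was not called different in early 2-cell embryos after A-485 (edgeR adjusted p = 0.966). Hdac10 and Hdac11 were under a mean of 1 FPKM in both early 2-cell groups, so they could not be called. Their adjusted p-values were 0.597 and 0.484 in edgeR. Hdac5 had a promoter peak in both early 2-cell lists and in no late 1-cell list. Hdac7 and Hdac8 had none in any list, and the nearest peak to Hdac8 in early 2-cell DMSO embryos lay 1037 bp away, just outside the limit. Counting only peaks above the median fold enrichment of their list, 2 members were counted in early 2-cell DMSO embryos, where 16.8% of protein-coding genes were, and 5 after A-485, where 24.3% were.

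**Figure D4:**
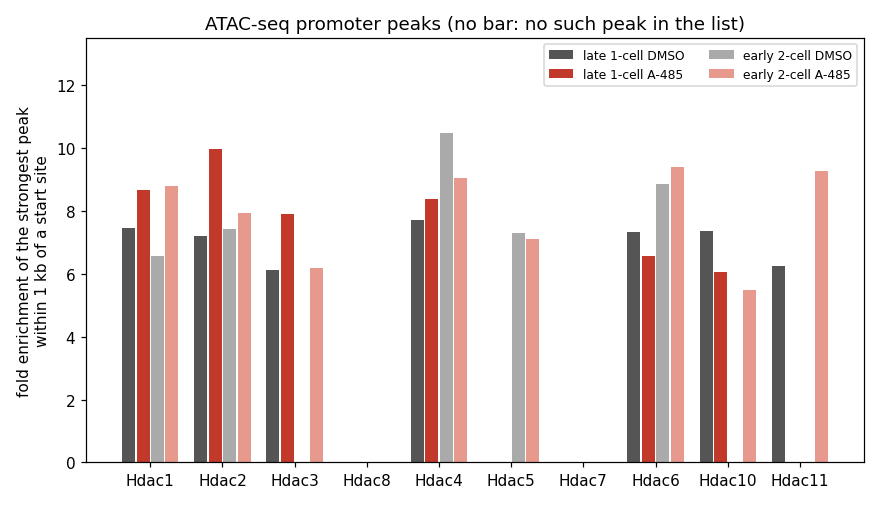
Fold enrichment of the strongest ATAC-seq peak within 1 kb of a start site of each gene, in 4 lists that each pool 2 replicates, with no bar where a list has no such peak. Hdac1, Hdac2, Hdac4 and Hdac6 carry a peak in all 4 lists, Hdac3, Hdac10 and Hdac11 lack one in early 2-cell DMSO embryos, and Hdac7 and Hdac8 have none.

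The printed stretches of Hdac2, Hdac4 and Hdac6 lay under a peak in all 4 lists, that of Hdac5 in both early 2-cell lists, and that of Hdac11 in late 1-cell DMSO and early 2-cell A-485 embryos. In the 250 bases before the RefSeq start, on both strands, Hdac4 and Hdac6 each held 2 CCAAT boxes and 4 GC boxes, Hdac5 2 and 1, Hdac11 1 and 1, and Hdac2 0 and 1. Hdac8 held 2 CCAAT boxes and no GC box, and of the 4 starts of Hdac7 1 held a GC box and none a CCAAT box. Over all 32851 promoters searched in the same way, 33.8% held a CCAAT box and 32.7% a GC box. The same search for an E-box (CACGTG, 6.02% of promoters) found it in none of these genes, and for a TATA box (TATAAA, 12.4%) in Hdac8 alone. The Hdac8 matches lay after the start of its GENCODE gene, and the 150 bases before its RefSeq start overlapped 2 annotated exons. The CCAAT box of Hdac11 also lay after its earlier GENCODE start. A match here is of letters only. The share of G and C in those 250 bases was 68.8% for Hdac2, 65.2% for Hdac4 and Hdac11, 61.2% for Hdac6, 60.8% for Hdac5 and 48.4% for Hdac8, against a median of 52.4%.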

How the data were processed

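Total RNA was measured in 16 libraries (SMART-Seq Stranded kit) and open chromatin in 4 pairs of ATAC-seq samples. The authors trimmed reads with Trimmomatic 0.39, mapped them to GRCm38 with STAR 2.7.8a and quantified genes with RSEM 1.3.1. The deposited expected count is an estimated count, not normalized, and the deposited FPKM was computed by RSEM for the authors from the count and the effective length. The posterior SD of the count was used only to see which members share reads. The deposited peak lists give fold enrichment as a ratio and -log10 q of the authors' peak caller over both replicates, and -log10 q was not used for a result. Their build is not given in the sources used here, and all 10214, 7094, 27693 and 13712 peaks lay within the chromosomes of GRCm38.

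Of 55385 gene identifiers, 55144 matched GENCODE M21 without their version suffix. Expected counts were rounded, and genes whose counts in the compared libraries added up to 10 or more were tested in edgeR 4.0.16 under R 4.3.3 (TMM scaling, quasi-likelihood test, Benjamini-Hochberg adjustment over all genes tested). A comparison within a stage used its 4 libraries and a difference of effects 8. Intervals are 95% from the t distribution of the fit. Where no library of a group exceeded 3 counts, only a bound on the fold was given. Copies were searched with BLAST 2.17.0 (90% identity over 1000 bases or more). Python 3.11.15 was used for the rest.

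Named genes were all 10 members in each comparison of an inhibitor with DMSO, the called partner gene of each direction with the largest change in each list, the pseudogenes and overlapping genes of members, and the 5 genes most like the member with the widest range. The members and lists were chosen with earlier results of these data known. Alternatives were DESeq2 1.42.0, 2 other scalings, no filter on low counts, 1 fit of all 16 libraries, a block for the replicate number, dropping the FPKM or the fold cutoff, and leaving out each library. Adding the pseudogene's counts was chosen after seeing the data. The code was tested on simulated data. Replicates of a group differed by more than counting noise, at a chi-square of 8.99 to 18 for each degree of freedom, so the number of libraries limits precision more than depth. The CUT&RUN samples were not analysed here.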

Additional observations from a re-analysis of the deposited data

Results flagged for a closer look

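The effects of A-485 differed between the late and the early 2-cell stage for Hdac6 (difference of log2 changes -2.57) and Hdac4 (-2.52) in the edgeR interaction test. At the late 2-cell stage, the effect of TSA differed from that of A-485 for Hdac6 (2.71), Hdac1 (2.17), Hdac2 (1.23), Hdac4 (1.29) and Hdac7 (4.76), each taken against its own DMSO libraries. The differences for Hdac4 and Hdac7 between the inhibitors were lost in several alternatives. The A-485 embryos had been free of the drug since 20 hours after insemination and the TSA embryos were treated until 28 hours, so the inhibitor and its timing cannot be told apart.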

How the results depend on the processing

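The alternatives were tallied for 50 fold changes of members. These were chosen by a low unadjusted edgeR p in the main setting, with Hdac1 and Hdac2 added in each comparison except that of the controls. The other fold changes of members are not in the tally. In it, 612 values kept their direction and their side of the criteria, 33 passed them newly, 31 no longer passed and 11 changed sign. Where a cause is not named, the cause was not tested.

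With scaling to the mitochondrially encoded genes, 6 members were called after A-485 in late 2-cell embryos, 5 between zygote and early 2-cell, 5 for the late against early effect of A-485 and 8 for TSA against A-485, and 32 partner genes were called after A-485 in late 2-cell embryos, all of them lower. Under this scaling 30.1% of all genes tested fell after A-485 in late 2-cell embryos, 40.8% fell between zygote and early 2-cell, 25% were more negative for the late against early effect and 25% more positive for TSA against A-485. With 1 fit of all 16 libraries these were 5 after A-485 in late 2-cell embryos, 4 for the late against early effect and 3 for TSA against A-485, and the calls of Hdac1 after TSA and of Hdac3 between zygote and early 2-cell were lost. In that fit 13.9% of all genes fell and 9.74% rose after A-485 in late 2-cell embryos. With total counts, 3 were called after TSA, where 17.5% of all genes rose and 10.2% fell. With only peaks above the median fold enrichment of their list, 2 members had a promoter peak in early 2-cell DMSO and 5 in early 2-cell A-485 embryos, against 16.8% and 24.3% of protein-coding genes. Leaving out 1 library gave 3 to 5 members from early to late 2-cell, 2 to 4 for the late against early effect of A-485 (4 without late 2-cell A-485 replicate 2), and 3 to 5 for TSA against A-485.

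Among the fold changes so chosen, and apart from Hdac2 between zygote and early 2-cell, the values that changed sign had no adjusted p under 0.05 in the report. After A-485 in zygotes, Hdac1 was at 0.15 with mitochondrial scaling and between -0.41 (without DMSO replicate 1) and 0.27 (without DMSO replicate 2) when a library was left out, and Hdac2 between -0.03 (without DMSO replicate 1) and 0.13. Hdac2 after A-485 in early 2-cell embryos was between -0.08 (without DMSO replicate 2) and 0.14, and from zygote to early 2-cell at -0.77 with mitochondrial scaling. The late against early effect of A-485 on Hdac1 was 0.10 with total counts, between -0.43 and 0.46 when a library was left out, with 0.11 without early 2-cell DMSO replicate 2, 0.46 without early 2-cell A-485 replicate 2, 0.03 without late 2-cell A-485 replicate 1, and 0.15 with the pseudogene joined.

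With the replicate number as a block, the counts of called members were 0, 1 and 4 after A-485 in zygotes, early and late 2-cell embryos, 5 after TSA, 3 and 5 between stages, 0 between the controls, and 2 and 6 for the differences of effects, and the late against early effect on Hdac1 was 0.01. Samples with the same number did not deviate together (r from -0.039 to 0.096), so the number was not taken as a pairing. Depth limits Hdac7, Hdac10 and Hdac11, whose control libraries held few counts. For Hdac5 this holds in zygote and early 2-cell controls. Its late 2-cell controls held 74 and 93 counts (A-485 experiment) and 101 and 97 counts (TSA experiment), against 23 and 1 counts after A-485.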
